A study of Saccharomyces cerevisiae with 12 samples.

Results

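The cytosolic ribosomal protein (RP) genes of budding yeast (*Saccharomyces cerevisiae*) were followed across 4 strains on Affymetrix Yeast S98 arrays. A gene was included if its symbol was RPL or RPS with a number and an optional A or B, and if at least 1 probe set was annotated to it alone. Where a gene had several such probe sets, the one with the highest mean over the 12 arrays stood for it. This gave 75 genes out of 5656 with a probe set of their own, 42 of the large subunit and 33 of the small subunit. A further 54 RP genes were on this array only through probe sets that RP genes share. The selection used symbols only and no difference between strains.

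RP genes encode the proteins that assemble with ribosomal RNA into the large and the small ribosomal subunit in the nucleolus. After an ancient genome duplication many of them remained as a pair of nearly identical genes, A and B, both of which are transcribed, while others are single-copy. In rapidly growing yeast their transcripts make up a large part of messenger RNA, and they are set together through Rap1, Fhl1, Ifh1 and Sfp1 under the control of TORC1 and protein kinase A. Their transcripts are known to fall together when cells meet stress, as the general stress genes rise. Rad4 and Rad23 form the complex that recognises damaged DNA in nucleotide excision repair, and Rad23 also carries ubiquitinated proteins to the proteasome.

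The strains were the double mutant *rad4Δrad23Δ*, the single mutants *rad23Δ* and *rad4Δ*, and wildtype, with 3 arrays of each (R1 to R3) that the submitters describe as biological repeats. All 4 share the BY4742 background, all were growing exponentially in rich medium (YPD), and none had been irradiated. The double mutant was made from the *rad23Δ* strain by putting a *HIS3* marker in place of *RAD4*, so that it differs from the others in that marker as well. How many independent clones stood behind a strain is not given in the sources used here, and wildtype served as the control in 3 of the 5 comparisons, which therefore share its arrays. All values below are log2 robust multi-array average (RMA) values as deposited, so that a difference of 1 is 2-fold, and each comparison is the mean of the first strain minus that of the second. The array reads RNA relative to the rest of the sample, so an equal loss of every transcript would not be seen, and fewer expressing cells cannot be told apart from less RNA per cell.

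The deleted genes were read first. *RAD23* was between 3.66 and 4.88 on the 6 arrays of the double mutant and *rad23Δ* and between 9.32 and 9.82 on the other 6. *RAD4* was 2.99, 2.70 and 2.84 on the double mutant arrays and 3.49, 5.47 and 3.01 on those labelled *rad4Δ*, against 5.44, 5.12 and 5.14 in *rad23Δ* and 5.11, 5.12 and 3.42 on those labelled wildtype. The array labelled *rad4Δ* R2 therefore carried *RAD4* at the level of strains with the gene, and that labelled wildtype R3 at the level of strains without it. Both stayed in the group of their label, and most differences of named genes from these strains are also given without them. One further array stood apart in single probe sets. On double mutant R2, 54 probe sets lay more than 2 log2 units below their median on the other 11 arrays, against at most 10 on any other array. The array medians over all probe sets ran from 5.83 to 5.90.

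The RP genes gave steady signals. Their mean values over the 12 arrays ran from 8.91 for *RPL22B*, a non-essential large subunit protein, to 14.15 for *RPS26A*, a small subunit protein at the messenger RNA exit, with a median of 11.72 against 5.89 for all 9275 probe sets tested. These ends describe probe sets and not transcript numbers, since probes differ in how strongly they bind. Within strains, the SD had a median of 0.11 over the 75 genes, against 0.17 over all probe sets and 0.16 over the 1227 probe sets at least as bright as the dimmest RP gene. The smallest SDs were those of *RPS26A* (0.05), *RPL31A* (0.05), a protein beside the exit tunnel, and *RPS13* (0.06). The widest were those of *RPL38* (0.85), *RPS0B* (0.46) and *RPL9A* (0.30).

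**Figure D1:**
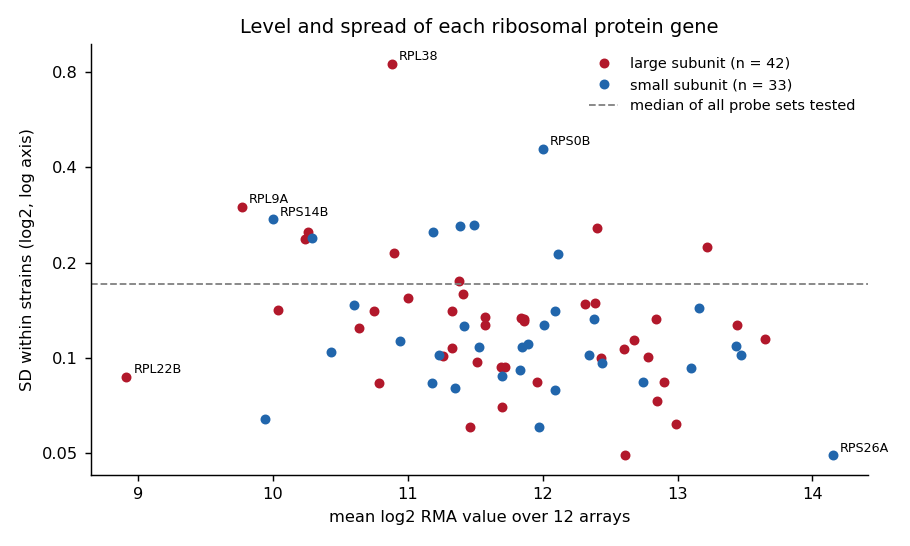
Mean log2 RMA value of each of the 75 RP genes over 12 arrays (x axis) against its SD within the 4 strains (y axis, log scale), with the median SD of all probe sets tested as a dashed line. Most points lie under the line at 0.17, while *RPL38* at 0.85 and *RPS0B* at 0.46 lie far above it.

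No RP gene differed between strains by the test across all genes. With limma, 1 mean per strain and Benjamini-Hochberg adjustment over the 9275 probe sets, 0 of 75 passed an adjusted p of 0.05 for the double mutant against wildtype (background 0.647% of all probe sets), for *rad23Δ* against wildtype (0.280%), for *rad4Δ* against wildtype (0.00%), for the double mutant against *rad23Δ* (0.873%) and for the double mutant against *rad4Δ* (0.765%). None passed in the test of the interaction of the deletions (0.0863%) or in the F test over the 4 strains (0.895%). At backgrounds under 1% the count expected for 75 genes is itself below 1, so that a count of 0 does not set these genes apart. By limma without adjustment, an unadjusted p under 0.05 was reached by 3, 2, 1, 0 and 1 of the 75 genes in the same order of comparisons, or 4%, 2.67%, 1.33%, 0.00% and 1.33%, against 11.1%, 7.15%, 4.16%, 10.3% and 10.8% of all probe sets. For the interaction it was reached by 1 of 75 (1.33%), against 8.92% of all probe sets. Leaving out the 2 arrays in doubt also gave 0 RP genes in the 5 comparisons and in the interaction, beside 0.787%, 0.658%, 0.431%, 1.35%, 1.25% and 1.19% of all probe sets. A fit that weighted the arrays by their spread gave other counts, 25 RP genes in *rad23Δ* against wildtype and 9 in the double mutant against wildtype, while calling 25.4% of all probe sets in each.

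How large a change could have gone unseen was read from the 95% intervals. Their median half-width was 0.23 for a comparison of strains. The whole interval lay within 0.5 log2 units of no change (1.41-fold) for 63 of the 75 genes in the double mutant against wildtype, for 66 in *rad23Δ* and for 63 in *rad4Δ*, and for 64 and 65 in the double mutant against *rad23Δ* and against *rad4Δ*. For all probe sets this share was between 62.2% and 68.5%. The estimates themselves lay within 0.25 (1.19-fold) for 70 of 75 in the double mutant against wildtype, or 93.3%, against 77.8% of all probe sets and 71.2% of the equally bright ones. In *rad23Δ* against wildtype they did so for 96.0%, against 82.7% and 85.8%, and in *rad4Δ* for 93.3%, against 86.1% and 86.6%. All these counts and shares take the arrays as labelled, including those in doubt. If the labels in doubt are wrong, the intervals do not bound the true change in comparisons with *rad4Δ* or wildtype.

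As a group, the RP genes stood almost level in the double mutant. Their median difference from wildtype was 0.003 in *rad4Δrad23Δ*, with 39 genes above and 35 below, against a median of -0.02 over all probe sets. In *rad4Δ* it was 0.02, with 43 above and 31 below, against -0.003 for all. In *rad23Δ* it was 0.08, with 59 above and 16 below, against -0.01 for all. The median of the double mutant minus *rad23Δ* was -0.07, with 9 above and 66 below, and that of the double mutant minus *rad4Δ* was -0.02. Large and small subunit genes shared these positions, with medians of 0.002 and 0.003 in the double mutant against wildtype, 0.08 and 0.07 in *rad23Δ*, and 0.02 and 0.03 in *rad4Δ*. Single-copy genes had 0.07 and genes with a paralogue 0.08 in *rad23Δ* against wildtype. The 59 probe sets shared by RP genes, which no member used, had medians of 0.02, 0.10 and 0.02 in the 3 comparisons with wildtype, and 0 of them were called.

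Array by array, the shift in *rad23Δ* did not hold over its replicates. The RP genes' median deviation from each gene's own mean was -0.03, 0.03 and -0.04 on the double mutant arrays, -0.05, 0.07 and 0.13 on the *rad23Δ* arrays, 0.01, -0.02 and 0.02 on those labelled *rad4Δ*, and -0.06, 0.06 and -0.06 on those labelled wildtype. *rad23Δ* R1 thus lay with wildtype R1 and R3, while R2 and R3 of *rad23Δ* were the highest of the 12, and wildtype R2 came next. The number of RP genes above their own mean followed, with 23, 58 and 65 of 75 in *rad23Δ*, 21, 47 and 20 in the double mutant, and 16, 46 and 18 in wildtype. The means were -0.01 ± 0.04 in the double mutant, 0.05 ± 0.09 in *rad23Δ*, 0.00 ± 0.02 in *rad4Δ* and -0.02 ± 0.07 in wildtype (SD, n = 3 each), so that the difference between *rad23Δ* and wildtype was smaller than the spread between replicates of *rad23Δ*. Without the arrays in doubt the medians against wildtype were -0.01 in the double mutant, 0.05 in *rad23Δ* and 0.00 in *rad4Δ*.

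**Figure D2:**
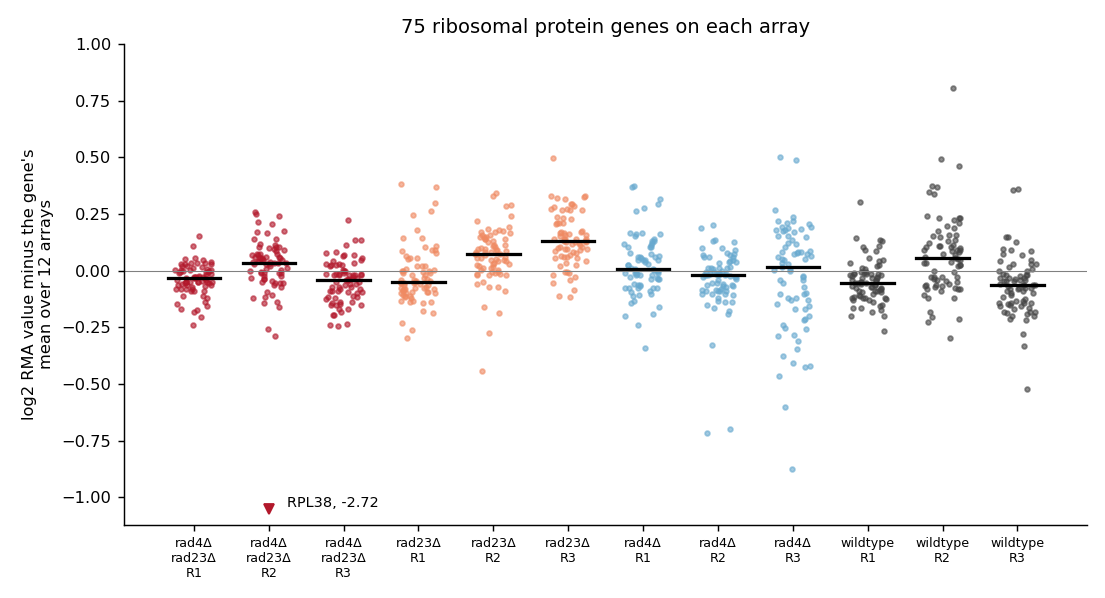
Each point is 1 of the 75 RP genes on 1 array, as its log2 RMA value minus its own mean over the 12 arrays (y axis), and black lines are the array medians. The medians span only -0.06 to 0.13, with *rad23Δ* R3 highest, and the triangle marks *RPL38* on *rad4Δrad23Δ* R2, which is off the scale.

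General stress genes, which are known to move against RP genes, were higher in the double mutant. This list of 26 (targets of the general stress response such as *HSP12* and *CTT1*) was drawn up with earlier results of these data known. Its median deviation was 0.30, 0.38 and 0.37 on the double mutant arrays, against -0.21, -0.24 and -0.22 in *rad23Δ*, -0.14, -0.06 and -0.23 in *rad4Δ*, and -0.08, 0.07 and -0.18 in wildtype. All 3 double mutant arrays were above all 9 others. Against wildtype, 5 of the 26 were called in the double mutant, all of them higher (background 0.647% of all probe sets). By limma with Benjamini-Hochberg adjustment they were *ALD3* (0.72, adjusted p = 0.00692), *GRE1* (0.96, adjusted p = 0.00399), *NQM1* (1.23, adjusted p = 0.000278), *PNC1* (0.49, adjusted p = 0.0481) and *XBP1* (0.74, adjusted p = 0.0170). Without the arrays in doubt the list's median was again 0.46, and the background was 0.787%. *ALD3*, *GRE1* and *NQM1* were called there (limma adjusted p = 0.0152, 0.0107 and 0.00197), and *PNC1* and *XBP1* were not (0.0939 and 0.0657). In that fit *HSP42* was also higher (1.22, limma adjusted p = 0.00216) and *HSP26* was lower (-0.53, limma adjusted p = 0.0336); both encode heat shock proteins. *ALD3* encodes an aldehyde dehydrogenase, *PNC1* a nicotinamidase and *XBP1* a repressor of transcription induced by stress. The medians of the stress list were 0.46 in the double mutant against wildtype, 0.53 against *rad23Δ* and 0.42 against *rad4Δ*, beside 0.003, -0.07 and -0.02 for the RP genes.

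**Figure D3:**
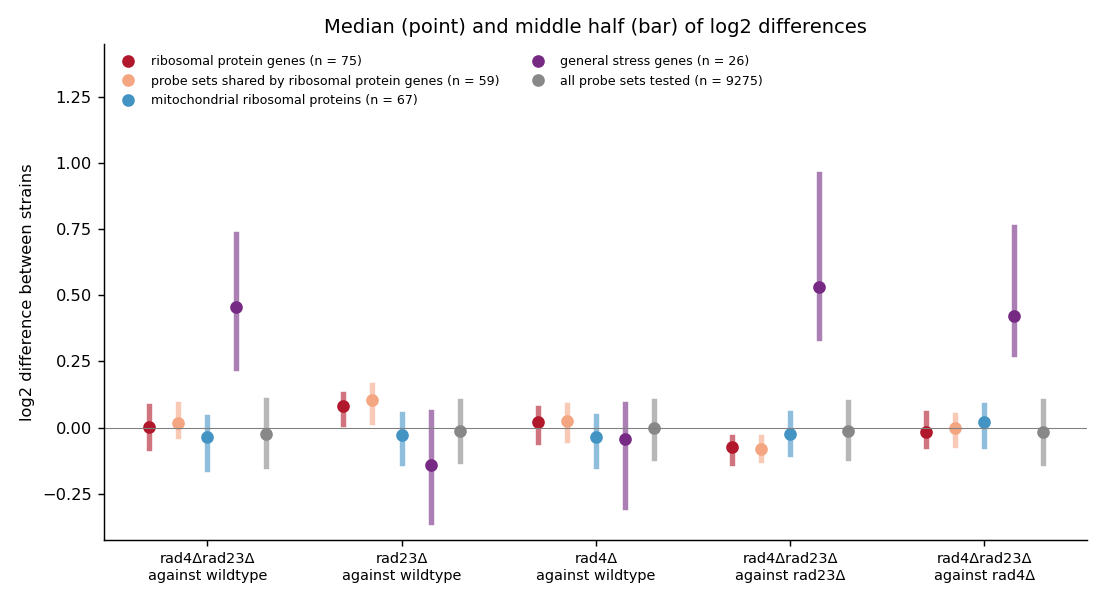
Median log2 difference (points, first strain minus second) and range between the quartiles (bars) for the RP genes, the probe sets they share, mitochondrial RP genes, general stress genes and all probe sets in the 5 comparisons (x axis). The RP medians lie between -0.07 and 0.08, while the stress medians reach 0.46, 0.53 and 0.42 in the 3 comparisons with the double mutant on top.

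The double mutant against wildtype tested the loss of both proteins, and *RPL7B*, *RPS9A* and *RPS10B* stood farthest apart there among the RP genes whose arrays separated. Its 3 arrays did not overlap with those labelled wildtype for 12 of the 75 genes, or 16% (background 24.9%), 8 higher (background 11.6%) and 4 lower (background 13.3%). On the higher side the share of RP genes, 10.7%, was near the background, and on the lower side, at 5.33%, it was below it. After a further quantile normalization 20 RP genes did not overlap, or 26.7% (background 25.5%), so that the share was no longer below. Without the array in doubt there were 18, among 35.6% of all probe sets.

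*RPL7B* (YPL198W), 1 of the paralogues for a large subunit protein, read 11.29, 11.09 and 11.14 on the double mutant arrays and 11.51, 11.46 and 11.74 on those labelled wildtype. All 3 double mutant values were below all 3 wildtype values, and those labelled *rad4Δ* (11.64, 11.24 and 11.14) spanned both. The difference was -0.40 ± 0.14 (SE), with a 95% interval of -0.70 to -0.09 and an adjusted p of 0.313 (limma), the lowest of any RP gene in this comparison. Leaving out the arrays in doubt gave -0.31. Its second, dimmer probe set gave -0.16.

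*RPS9A* (YPL081W), for a small subunit protein that helps to set the accuracy of decoding, read 9.74, 9.85 and 9.75 in the double mutant, 9.87, 9.99 and 10.01 in *rad23Δ*, 10.05, 10.02 and 10.02 on the arrays labelled *rad4Δ* and 10.03, 10.08 and 9.92 on those labelled wildtype. It was the only RP gene whose double mutant arrays lay below all arrays of each of the other 3 strains. The differences were -0.23 from wildtype (adjusted p = 0.343), -0.18 from *rad23Δ* (adjusted p = 0.539) and -0.25 from *rad4Δ* (adjusted p = 0.288), all by limma with an SE of 0.09. None passed the test. Without the arrays in doubt the differences were -0.28 from wildtype and -0.26 from *rad4Δ*.

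*RPS10B* (YMR230W), for a small subunit protein, read 10.47, 10.65 and 10.57 in the double mutant and 10.32, 10.39 and 10.30 on those labelled wildtype. All 3 double mutant values were higher, and 2 of the *rad23Δ* values (10.47 and 10.60, beside 10.29) were among them. The difference was 0.23 ± 0.10 (SE, 95% interval 0.00 to 0.45, limma adjusted p = 0.440). *RPL36B* (0.18) and *RPL16B* (0.15), both of the large subunit, followed on the higher side among the genes that did not overlap, with limma adjusted p of 0.603 and 0.609, and *RPS10A* had the same difference as *RPL16B*. Without the array in doubt the differences were 0.21 for *RPS10B*, 0.16 for *RPL36B* and 0.14 for *RPL16B*.

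*RPL22B* was low in the double mutant, at 8.67, 8.85 and 8.82, against 9.0, 9.0 and 8.96 on the arrays labelled wildtype. The groups did not overlap, although *rad23Δ* R1 (8.79) lay within the double mutant range. The difference was -0.21 (SE 0.10, limma adjusted p = 0.453), and -0.22 without wildtype R3. *RPL16A*, *RPL27A*, *RPL33B*, *RPS10A* and *RPS20* were the other genes on the higher side, and *RPS7B* the other on the lower side.

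**Figure D4:**
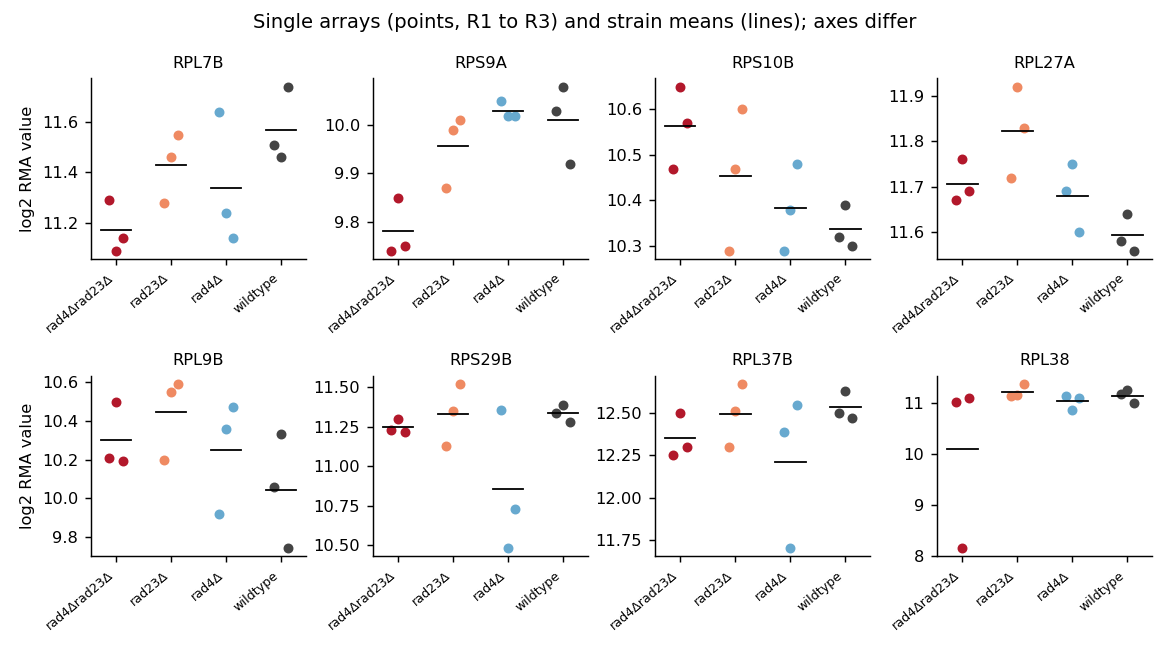
Log2 RMA values of 8 RP genes on each array (points, R1 to R3 from left to right) with the strain means (lines), by strain; the y axes differ. The groups lie close to each other except for *RPL38*, where 1 double mutant array reads 8.15.

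*RPL38*, for a small single-copy protein of the large subunit, held the largest difference of any RP gene, and it came from 1 array. It read 11.03, 8.15 and 11.10 in the double mutant, 11.14, 11.16 and 11.37 in *rad23Δ*, 11.15, 10.86 and 11.11 in *rad4Δ* and 11.18, 11.25 and 11 in wildtype. Double mutant R2 was 2.99 below the median of the other 11 arrays, and the remaining 11 lay between 10.86 and 11.37. The difference was -1.05 from wildtype (SE 0.57, limma adjusted p = 0.515) and -1.13 from *rad23Δ* (limma adjusted p = 0.555), the second of which was -0.16 without double mutant R2. The same array read 8.09 for a probe set shared by *RPL7A* and *RPL7B*, against 11.49 and 11.56 on double mutant R1 and R3, while the own probe sets of *RPL7A* (12.55) and *RPL7B* (11.09) showed no such drop there. Both fall among the 54 probe sets that were low on double mutant R2, and what lowered them was not tested.

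In *rad23Δ* against wildtype, with arrays as labelled, the RP genes whose arrays separated were on the higher side, at a share near the background. The arrays did not overlap for 5 genes, or 6.67% (background 11.5%), 5 higher (background 5.00%) and 0 lower (background 6.50%), namely *RPL16A*, *RPL27A*, *RPL37A*, *RPS21B* and *RPS31*. Without the array in doubt there were 9, with 7 higher and 2 lower, among 22.0% of all probe sets. *RPL27A* (large subunit) read 11.72, 11.92 and 11.83 in *rad23Δ* and 11.58, 11.64 and 11.56 on the arrays labelled wildtype. All 3 *rad23Δ* values were higher, by 0.23 ± 0.09 (SE, 95% interval 0.03 to 0.43, limma adjusted p = 0.575). The double mutant values (11.67, 11.76 and 11.69) were above wildtype as well and overlapped with those of *rad23Δ*. *RPS21B* differed by 0.20 (limma adjusted p = 0.711) and *RPS31*, which is made as a fusion to ubiquitin, by 0.17 (limma adjusted p = 0.749). With the arrays in doubt left out, the differences were 0.21 for *RPL27A*, 0.20 for *RPS21B* and 0.19 for *RPS31*.

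*RPL9B*, for a large subunit protein at the base of the stalk, had the largest difference in this comparison without separating the groups. It read 10.20, 10.55 and 10.59 in *rad23Δ* and 10.06, 10.33 and 9.74 on the arrays labelled wildtype. *rad23Δ* R1 lay below wildtype R2, and the array in doubt, wildtype R3, was the lowest of the 12. The difference was 0.40 ± 0.18 (SE, limma adjusted p = 0.687), and 0.25 without the arrays in doubt (limma adjusted p = 0.765).

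In *rad4Δ* against wildtype the arrays did not overlap for 4 genes, or 5.33% (background 5.47%), *RPL31B* (0.21), *RPL37A* (0.17) and *RPS21B* (0.15) on the higher side (background 2.53%) and *RPL22B* (-0.06) on the lower (background 2.93%), with limma adjusted p from 0.906 to 0.930. They were 0.15, 0.17, 0.18 and -0.09 in this order without the arrays in doubt. The lowest unadjusted p belonged to *RPS29B*, for a zinc-binding small subunit protein, whose arrays overlapped. It read 11.36, 10.48 and 10.73 on the arrays labelled *rad4Δ* and 11.34, 11.39 and 11.28 on those labelled wildtype, so that R1 of *rad4Δ* stood with wildtype while R2 and R3 were the lowest of the 12 arrays. The difference was -0.48 ± 0.18 (SE, limma adjusted p = 0.906). R2 is the array in doubt, and R3 was low as well. It was -0.32 (limma adjusted p = 0.641) when both arrays in doubt were left out.

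The double mutant set against each single mutant adds the other deletion, together with the *HIS3* marker. Against *rad23Δ*, from which it was made, its arrays did not overlap for 5 genes, or 6.67% (background 20.4%), 0 higher (background 10.4%) and 5 lower (background 9.93%): *RPL24A*, *RPL33A*, *RPL38*, *RPS9A* and *RPS31*. *RPS31* read 12.17, 12.38 and 12.34 in the double mutant and 12.43, 12.47 and 12.45 in *rad23Δ*, a difference of -0.15 (limma adjusted p = 0.710). Against *rad4Δ* they did not overlap for 4 genes, or 5.33% (background 17.2%): *RPL33B* (0.13) was on the higher side (background 7.73%), and *RPS9A* (-0.25), *RPL37A* (-0.17) and *RPL22B* (-0.15) on the lower (background 9.46%). In these 4 the limma adjusted p ran from 0.288 to 0.701. With *rad4Δ* R2 and wildtype R3 left out, *RPL33B* stood at 0.12, *RPL37A* at -0.19 and *RPL22B* at -0.14.

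*RPL37A*, for a zinc-binding large subunit protein, had the lowest p of the RP genes for the interaction, which asks whether the double mutant departs from the sum of the single deletions. It read 12.77, 12.84 and 12.73 in the double mutant, 12.83, 12.87 and 12.97 in *rad23Δ*, 12.86, 12.92 and 13.07 on the arrays labelled *rad4Δ* and 12.82, 12.77 and 12.75 on those labelled wildtype. Both single mutants were above all wildtype arrays and the double mutant was not. The interaction term was -0.28 ± 0.13 (SE, limma adjusted p = 0.559), and -0.28 without the arrays in doubt (limma adjusted p = 0.493). In all, 15 RP genes had a positive and 60 a negative interaction term, with a median of -0.07 against -0.01 over all probe sets.

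Both members of a paralogue pair were measured on probe sets of their own for 29 pairs, which gives a view of whether near-identical genes moved alike. Of the 75 members, 45 had a plain probe set, 15 one with the suffix f, which Affymetrix gives to probes shared within a sequence family, and 15 one with the suffix i, which marks an incomplete set of unique probes, so that a reading of a lettered set may hold some of the partner. The difference between the changes of gene A and gene B had a median size of 0.16 in the double mutant against wildtype, 0.12 in *rad23Δ* and 0.10 in *rad4Δ*. It stayed within 0.25 for 25, 27 and 24 of the 29 pairs. Both genes lay on the same side of wildtype in 13, 19 and 15 pairs. B genes spread more than A genes: in the double mutant against wildtype the differences lay within 0.25 for 25 of the 29 B genes and for all 29 A genes, in *rad23Δ* for 26 and 29, and in *rad4Δ* for 24 and 29. The median SD within strains was 0.13 for B genes and 0.11 for A genes. The intervals of pairs given below were not adjusted for the number of pairs or of comparisons. The pairs were named for being far apart or after their values were seen.

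**Figure D5:**
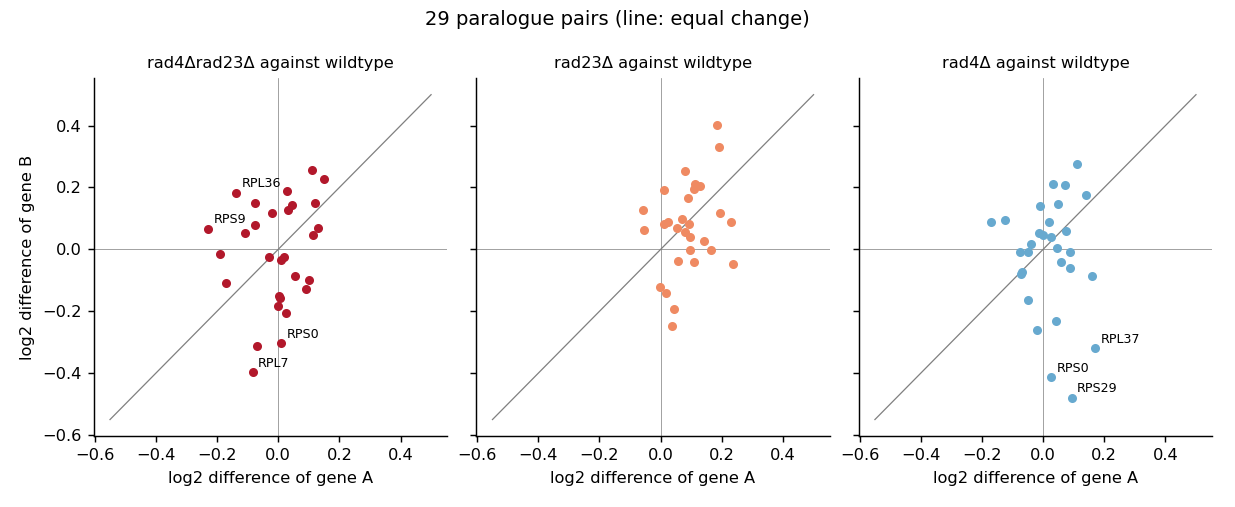
Log2 difference of gene A (x axis) and gene B (y axis) of each of 29 paralogue pairs in the 3 mutants against wildtype; points on the diagonal changed equally. The pairs farthest from the diagonal are named, with *RPS29* at 0.57 and *RPL37* at 0.49 farthest below the diagonal in *rad4Δ*.

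*RPS29* was the pair farthest apart. The value of *RPS29A* minus that of *RPS29B* was 0.70, 1.51 and 1.55 on the arrays labelled *rad4Δ*, against 0.67, 0.70 and 0.67 on those labelled wildtype, and lay between 0.79 and 0.89 on the 6 others. R2 and R3 of *rad4Δ* were far above all other arrays and R1 was not. The changes of the 2 genes differed by 0.57 (95% interval 0.18 to 0.97, from the limma SE). It was 0.44 without the arrays in doubt.

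*RPL37* was split on 1 array. *RPL37A* minus *RPL37B* was 0.47, 1.22 and 0.52 on the arrays labelled *rad4Δ* and 0.32, 0.14 and 0.28 on those labelled wildtype. The array labelled *rad4Δ* R2 held the gap, where *RPL37B* read 11.70 against at least 12.25 on the other arrays. The difference of changes was 0.49 (95% interval 0.12 to 0.86), and it was 0.27 without the arrays in doubt. *RPS29B* was also at its lowest on that array.

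*RPS9* had the largest gap between double mutant and wildtype among the pairs whose interval left out 0 there. The others were *RPL22* (0.23, 0.05 to 0.42), *RPL14* (-0.23, with an upper end just below 0) and *RPS21* (-0.16, -0.28 to -0.03). Over 29 pairs, some unadjusted intervals can be expected to leave out 0 even without any difference between the genes. *RPS21A* minus *RPS21B* was -0.10, -0.13 and -0.12 in the double mutant, below all 9 other arrays, which lay between -0.09 and 0.07. *RPS9A* minus *RPS9B* was -2.08, -2.03 and -2.25 in the double mutant, -1.91, -2.04 and -1.87 in *rad23Δ*, -1.77, -1.85 and -2.06 on the arrays labelled *rad4Δ* and -1.77, -1.70 and -2.0 on those labelled wildtype. The double mutant values were below all wildtype values and touched those of both single mutants. Against wildtype the changes differed by -0.30 (95% interval -0.53 to -0.06), the change of *RPS9A* being -0.23 and that of *RPS9B* 0.07. It was -0.39 without the array in doubt.

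For *RPL7* and *RPL36* in the double mutant and *RPS0* in *rad4Δ* the interval of the difference held 0. The changes of *RPL7A* (-0.08) and *RPL7B* (-0.40) differed by 0.31 (-0.08 to 0.71). *RPL7A* minus *RPL7B* was 1.25, 1.46 and 1.35 in the double mutant and 1.10, 1.30 and 0.72 on the arrays labelled wildtype. The last of these, R3, is the array in doubt and widened the gap. The changes of *RPL36A* (-0.14) and *RPL36B* (0.18) differed by -0.32 (-0.74 to 0.10), and wildtype R3 widened this gap too (2.90, 2.64 and 3.03 for A minus B on the arrays labelled wildtype). For *RPS0A* (0.03) and *RPS0B* (-0.41), whose protein is needed to mature the small subunit, the gap was 0.44 (-0.31 to 1.19), the widest interval among these pairs.

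Part of the variation of RP genes within strains lay along 1 direction. After each strain's mean was taken off, with arrays as labelled, a first axis held 46.5% of the variance of 74 genes (without *RPL38*). The first axis of all probe sets held 35.4% of theirs. *RPS0B*, *RPS14B*, *RPS28B* and *RPL17A* lay at one end, and *RPS1B* and *RPL9A* at the other. *RPS0B* read 12.03, 12.03 and 11.76 in the double mutant, 12.37, 11.56 and 12.06 in *rad23Δ*, 12.37, 11.99 and 11.13 in *rad4Δ* and 11.98, 12.81 and 11.94 in wildtype. The highest and the lowest values were wildtype R2 and *rad4Δ* R3, and the 4 strains overlapped. *RPS1B* ran the other way, with its highest value on *rad4Δ* R3 (11.98) and values of 11.66, 11.82 and 11.82 on double mutant R2 and *rad23Δ* R2 and R3, against 11.23 to 11.48 on the other 8.

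The within-strain deviations most like those of *RPS0B* were those of *RPL21A* (Pearson r = 0.97 over the 12 arrays), *RPS14B* (0.96) and *RPS28B* (0.95), while *RPL9A* was nearest to *RPL36B* (0.94), *RPL17B* (0.91) and *RPS1B* (0.89). Over all 2775 pairs of RP genes the median r was 0.27, and 67% were positive. These are descriptions of 12 arrays that share their processing. The arrays' positions on the RP axis followed their positions on the first axis of all probe sets (r = 0.92 over the 12 arrays), and the part of that axis in single differences was not tested. Between the A and B gene of a pair, the median r was 0.45, from -0.85 for *RPL36* to 0.94 for *RPS21*, with 8 of 29 below 0.

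Genes around the RP genes gave few calls. Of 24 regulators of RP and ribosome biogenesis genes that were measured, 1 was called, *TOD6*, a repressor that binds the promoters of ribosome biogenesis genes. It read 6.33, 6.13 and 6.38 in the double mutant, 6.79, 7.05 and 6.97 in *rad23Δ*, 7.16, 7.05 and 7.21 on the arrays labelled *rad4Δ* and 7.05, 6.79 and 7.31 on those labelled wildtype. The double mutant was below all 9 other arrays, and the gene fell by 0.77 against wildtype (limma adjusted p = 0.0216), by 0.66 against *rad23Δ* (limma adjusted p = 0.0447) and by 0.86 against *rad4Δ* (limma adjusted p = 0.0104). Without the arrays in doubt the call against wildtype was lost (-0.64, limma adjusted p = 0.0710) and those against *rad23Δ* and *rad4Δ* were kept (limma adjusted p = 0.0284 and 0.00890). In that fit *YAK1*, a kinase that acts against protein kinase A signalling, was also called, higher in *rad23Δ* (0.88, limma adjusted p = 0.0185) and in *rad4Δ* (1.12, limma adjusted p = 0.00950) than in wildtype. The 24 had median differences from wildtype of -0.03 in the double mutant, -0.09 in *rad23Δ* and -0.06 in *rad4Δ*. Without the arrays in doubt these medians were -0.149, -0.141 and -0.145, against -0.005, 0.005 and 0.015 over all probe sets.

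The selection did not take the symbols of 9 further proteins of the cytosolic ribosome, such as those of the acidic stalk and Asc1. Among these only *TMA10*, for a protein found with ribosomes, was called, at the same backgrounds. It read 7.29, 7.27 and 7.38 in the double mutant, 7.01, 6.98 and 6.79 in *rad23Δ*, 6.49, 5.74 and 5.96 on the arrays labelled *rad4Δ* and 5.58, 5.30 and 6.44 on those labelled wildtype. Double mutant and *rad23Δ* arrays were above all others. It rose by 1.54 in the double mutant against wildtype (limma adjusted p = 0.0170) and by 1.25 against *rad4Δ* (limma adjusted p = 0.0445), while 1.15 in *rad23Δ* against wildtype missed the threshold (limma adjusted p = 0.115). Without the arrays in doubt these differences were 1.87, 1.09 and 1.49, and all 3 passed (limma adjusted p = 0.000477, 0.0120 and 0.00253). The stalk genes differed little, with *RPP0* at -0.03, *RPP1A* at -0.06 and *RPP2B* at -0.07 in the double mutant against wildtype. Of 12 translation factors, mostly of elongation and release but with *SUI1*, *TIF11* and *PAB1* among them, 0 were called in any comparison. The same held for 67 mitochondrial RP genes, in both cases with or without the arrays in doubt. At backgrounds under 1% as labelled, and of at most 1.35% without those arrays, counts of 0 do not set these lists apart. The medians of the mitochondrial genes were -0.04, -0.03 and -0.04 in the double mutant, *rad23Δ* and *rad4Δ* against wildtype. Without the arrays in doubt they were -0.085, -0.092 and -0.11, so that their size depended on these labels.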

How the data were processed

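RNA of each of the 12 cultures was hybridised to its own Affymetrix Yeast S98 array. Per the labels, the authors deposited log2 RMA values, 1 per probe set; their processing notes name Microarray Suite 5.0 and the Affy package 1.5.8 of Bioconductor 1.5 under R 2.0.1. RMA makes the value distributions of the arrays alike, so that a shift of all genes is not seen. The depth of an array has no count behind it, and 3 arrays per strain limit the precision.

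The 9275 probe sets that were not Affymetrix controls (60 of 9335) were analysed as deposited, with no filter on low values. Genes came from the platform annotation, with 6504 probe sets naming 1 gene, 328 several and 2443 none, and symbols from RefSeq, to which all 75 genes matched. Differences were tested with limma 3.58.1 in R 4.3.3 (lmFit, contrasts.fit and eBayes, 1 mean per strain over all 12 arrays, 8 residual and 4.03 prior degrees of freedom), and p-values were adjusted by Benjamini-Hochberg over the whole table, with a threshold of 0.05. The methods name no test. An exact permutation test of 3 against 3 arrays cannot go below 0.1 and was not used. The limma code was tested on simulated data.

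Genes were named by rule: up to 3 per comparison and direction with the largest difference among those whose arrays did not overlap, the 6 paralogue pairs farthest apart, the ends of the level and spread ranges, and called genes of the other lists. *RPL9B*, *RPS29B*, *RPS10A*, *HSP26*, *HSP42*, *YAK1*, the pairs *RPL14*, *RPL22* and *RPS21*, and the genes of the within-strain axis were named after their values were seen. Members and lists were chosen with earlier results of these data known. The alternatives were another scaling of the arrays, a variance trend, array weights, only the 2 strains compared, the replicate number as a block, a filter on dim probe sets, other probe sets per gene, and leaving out single arrays or the 2 in doubt.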

Additional observations from a re-analysis of the deposited data

How the results depend on the processing

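The count of 0 called RP genes depended on array weights. With limma's array weights the counts were 9 for the double mutant against wildtype, 25 for *rad23Δ* against wildtype (24 of them higher), 2 for *rad4Δ* against wildtype, 2 for the double mutant against *rad23Δ*, 3 for it against *rad4Δ* and 5 for the interaction. In the same fits 25.4%, 25.4%, 6.89%, 9.66%, 9.51% and 11% of all probe sets were called, and the weights ran from 0.232 (*rad4Δ* R3) to 11.5 (wildtype R1) without reaching convergence. Weights estimated gene by gene, an alternative chosen after seeing the data, gave 2 (*RPL7B* and *RPS9A*), 7, 0, 2 (*RPL22B* and *RPS9A*), 1 (*RPS29B*) and 0, beside 8.92%, 9.08%, 0.0108%, 9.96%, 3.71% and 3.58% of all probe sets. Leaving out single arrays gave 0 in every comparison except the double mutant against *rad4Δ*, where the range was 0 to 1: without *rad4Δ* R1, *RPS29B* was called (limma adjusted p = 0.0472). A further quantile normalization raised the number of non-overlapping RP genes to 20 for the double mutant and 10 for *rad23Δ* against wildtype (backgrounds 25.5% and 12.8%), and to 18 and 8 for the double mutant against *rad23Δ* and *rad4Δ* (23.4% and 18.8%); centring gave 0 and 2 for these last comparisons (20.6% and 16.9%). *RPS29A* minus *RPS29B* in *rad4Δ* was 0.85 without *rad4Δ* R1, and *RPL37A* minus *RPL37B* 0.25 without *rad4Δ* R2. The cause was not tested for any of these. All 55 alternatives for the group medians moved by less than the spread between replicates. For *rad23Δ* against wildtype the SDs of the 2 strains were 0.09 and 0.07, about as large as the median difference of 0.08. A move as large as that median would hardly be seen by this rule, and array weights were not among the 55. For genes named by rule for their difference, 180 alternatives were read: centring, the replicate block, and leaving out single arrays or the 2 in doubt. All kept the sign of the difference, and none was called, as in the main fit. The size of the moves in the 180 was not compared with a spread, and for *RPL38* it was large when double mutant R2 was left out. Array weights were not among the 180. With them several named genes were called, such as *RPL7B* and *RPS9A* in the double mutant against wildtype (limma adjusted p = 0.00409 and 0.00203).

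Deviations of same-numbered arrays correlated between -0.37 and 0.61, with 10 of 18 over 0.1. Those of differently numbered arrays ran from -0.65 to 0.65, and whether replicate numbers pair the arrays was not decided. With the replicate number as a block, 0 RP genes were called in every comparison. Signals lay far above the median probe set. Their means reached 14.15, near the highest of any probe set (14.35), and whether bright probe sets understate differences was not tested. The 3 arrays per strain, the 2 arrays with doubtful labels and the probe sets lost on double mutant R2 set further limits. The median half-width of the 95% interval was 0.23 with the arrays as labelled.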
